A study of Danio rerio with 6 samples.

Results

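The Slc25 family comprises the mitochondrial carriers, the proteins that pass metabolites, nucleotides, phosphate, amino acids and cofactors across the inner mitochondrial membrane. The carriers described here are the entries of the deposited gene table whose symbol begins with slc25a and whose mean normalised read count was above 0. There were 62 such entries, with 57 different symbols, among 23956 gene entries with a mean above 0. Another 7 entries had a mean of 0, and each of these 7 shares its symbol with an entry that was read. Just inside that limit lay slc25a35, a carrier without a settled substrate, with 1 read in 1 library of each genotype. Family members with another symbol, such as the uncoupling proteins ucp1, ucp2 and ucp3, are not among these entries. The sums and shares of the family below leave them out.

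Poly(A) RNA was sequenced from whole, unchallenged zebrafish larvae at 5 days post fertilization (dpf), with 3 libraries from tlr2+/+ larvae (wild type) and 3 from tlr2-/- larvae (tlr2 mutant). The mutant line carries the ENU-induced allele tlr2 sa19423, was outcrossed repeatedly to ABTL wild type fish, and the larvae of each genotype came from single crosses of their own parents. Whatever else differs between the parents therefore cannot be told apart from the genotype of the larvae. Toll-like receptor 2 is a receptor of the innate immune system that binds bacterial lipoproteins, and the comparison asks which transcripts differ without it. Both tlr2 entries of the gene table had a mean of 0, so tlr2 transcript levels gave no check of the genotype labels.

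Mitochondria import ADP and phosphate, make ATP and export it, and the ADP/ATP carriers and the phosphate carrier perform these exchanges. Other carriers bring in fuels, such as acylcarnitines for fatty acid oxidation, move malate, aspartate and 2-oxoglutarate in the shuttles that transfer reducing equivalents, or supply cofactors that are made in the cytosol. In larval fish, skeletal muscle and heart are rich in mitochondria, and in whole larvae a smaller number of cells of a type and less RNA in each cell cannot be told apart.

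The 6 libraries held between 17854737 and 33403126 estimated counts. Wild type replicates 1 and 2 had 12944 and 11906 genes with at least 10 reads, against 15535 to 19194 in the other libraries, although wild type replicate 1 was among the deepest, and these 2 libraries stand apart from the rest. Of the 62 carriers, 59 could be joined to their transcripts. No read was recorded for 13, 19 and 3 of the 59 in wild type replicates 1, 2 and 3, and for 3, 11 and 9 in mutant replicates 1, 2 and 3. Reads were found in all 6 libraries for 33 of the 59. A count of 0 allowed a level of up to 0.0567 to 0.183 CPM, the reads of a gene scaled to library size, depending on the library, and this limit covers counting error only. The remaining 3 carriers were read in 1 mutant library each, slc25a24l with 15 reads, slc25a51a with 16 and the second entry of slc25a16 with 5. The labelled whole larvae held transcripts of muscle, neurons, erythrocytes, liver, intestine and leukocytes, and the summed markers of these lists in TPM, the level of a transcript corrected for its length and scaled to the library, ran from 78993 to 157864 for muscle, 325 to 907 for neurons, 1809 to 4735 for erythrocytes, 2780 to 6415 for liver, 1452 to 3485 for intestine and 65.2 to 142 for leukocytes.

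Carriers that exchange ADP for ATP held most of the family's transcripts. Because TPM is corrected for length, levels of different genes can be compared on it. The whole family summed to 10707, 9553 and 8233 TPM in the wild type libraries, in order of replicate number, and to 10959, 11508 and 9501 TPM in the mutant libraries, and all values below are given in this order. That is about 1% of all transcripts, between 0.823% and 1.15%, and the groups overlapped (exact two-sided permutation test, p = 0.3, n = 3 against 3, where 0.1 is the smallest p that 3 against 3 allows). A mean of at least 1 TPM was reached by 41 of 59 carriers, at least 10 TPM by 15, at least 100 TPM by 5 and at least 1000 TPM by 2.

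**Figure D1:**
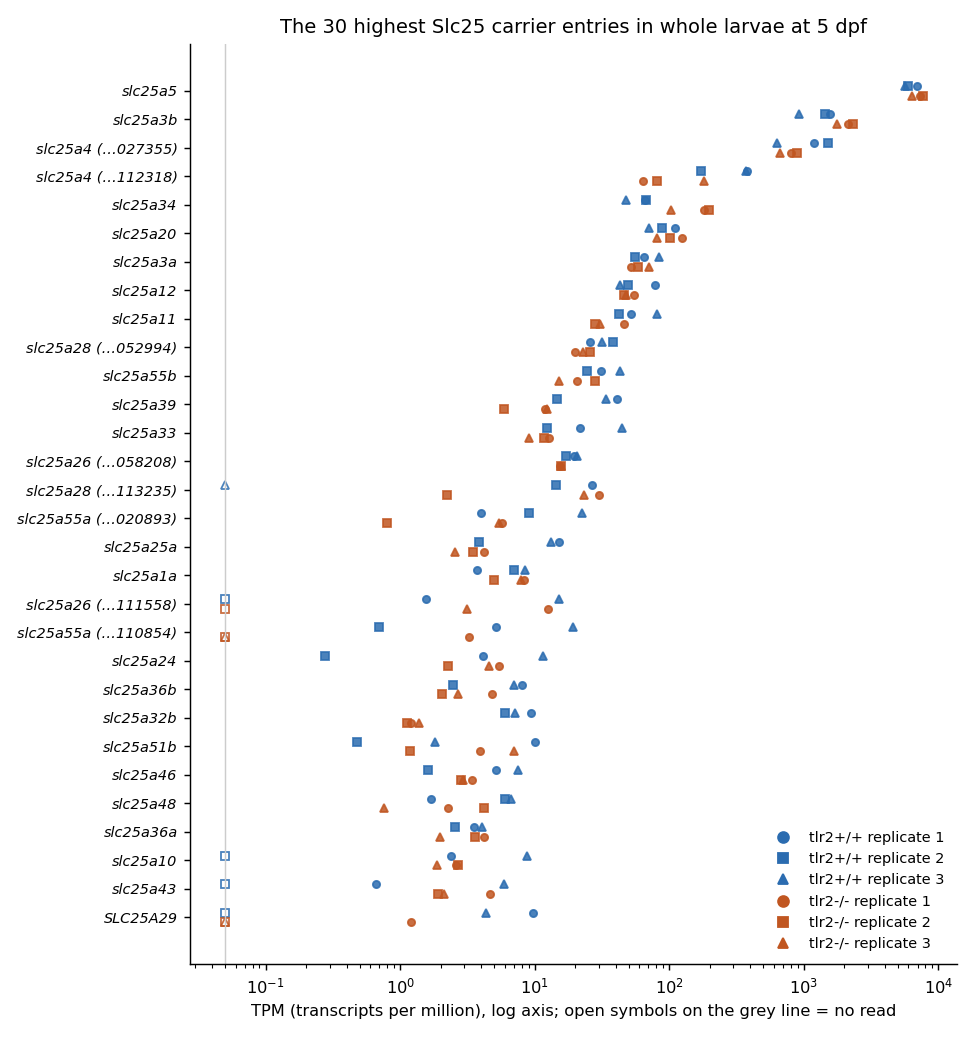
TPM on a log axis of the 30 carrier entries with the highest mean, one row each, for 3 wild type libraries (blue) and 3 mutant libraries (orange). Open symbols on the grey line mark libraries without a read; the endings in brackets are the last digits of the gene identifier where a symbol has more than 1 entry. Levels span from 5613 TPM or more for slc25a5 to a few TPM for most carriers, and slc25a34 and slc25a32b are seen with wild type and mutant symbols apart.

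The highest carrier was slc25a5 (ENSDARG00000092553), an ADP/ATP carrier, which ranked 22nd of all joined genes by mean TPM. It stood at 6944, 5940 and 5613 TPM in the wild type libraries and at 7319, 7635 and 6387 TPM in the mutant libraries. Its lowest library lay above the highest library of every other carrier. The next in order was slc25a3b (ENSDARG00000025566), a phosphate carrier, with 1555, 1438 and 926 TPM in wild type and 2118, 2330 and 1773 TPM in tlr2 mutants. Then came slc25a4, the other abundant ADP/ATP carrier, which in mammals is the form of heart and skeletal muscle. Its 2 entries (ENSDARG00000027355 and ENSDARG00000112318) summed to 1568, 1693 and 1003 TPM in wild type and 864, 971 and 847 TPM in mutants. Summed slc25a4 lay above slc25a3b in each wild type library, narrowly so in replicate 1, and below it in each mutant library. In TPM the order of these carriers therefore differed between the genotypes. In wild type replicates 1 and 3 this rests on the second slc25a4 entry, a short transcript of 897 nt. The first entry alone had 1189, 1521 and 632 TPM in wild type, above slc25a3b only in replicate 2. In reads, which are not corrected for length, slc25a3b was above summed slc25a4 in every library. In wild type it had 76232, 47516 and 41388 reads against 59396, 46722 and 35051. An entry for slc25a6, the remaining ADP/ATP carrier, had only 7 and 2 reads, in mutant replicates 1 and 2.

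A second tier lay well below these. It held slc25a34 (47.3 to 198 TPM over the 6 libraries), slc25a20 (70.4 to 125 TPM), slc25a3a (52.3 to 83.7 TPM), slc25a12 (43.2 to 77.8 TPM) and slc25a11 (28.1 to 80.9 TPM), whose ranges overlapped. These are, in order, a carrier of unsettled substrate, the carnitine/acylcarnitine carrier, the second phosphate carrier, the calcium-regulated aspartate/glutamate carrier and the 2-oxoglutarate/malate carrier. The uncoupling protein ucp2, left out by its symbol, had 319, 146 and 228 TPM in wild type and 219, 211 and 191 TPM in mutants. In each library it lay above every carrier of this tier. Most of the TPM of slc25a34 lay on a short transcript of 596 nt. In CPM, which is not corrected for length, slc25a34 stood at 12.7 to 130 beside 58 to 221 for slc25a20. The iron carrier slc25a28, mitoferrin 2, had 52.3, 52.3 and 31.8 TPM in wild type and 50, 28 and 46.3 TPM in mutants when its 2 entries were summed. Reads of slc25a28 moved between these 2 entries from library to library, with 0% to 35.5% of them at the second entry. Mitoferrin 1, slc25a37, which in zebrafish supplies iron for heme in erythroid cells, had 8 reads in wild type replicate 3, 11 in mutant replicate 3 and none elsewhere, in larvae whose erythroid marker list summed to at least 1809 TPM. The liver form of the aspartate/glutamate carrier in mammals, slc25a13, had 16 and 11 reads in wild type replicates 2 and 3 and none elsewhere.

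**Figure D2:**
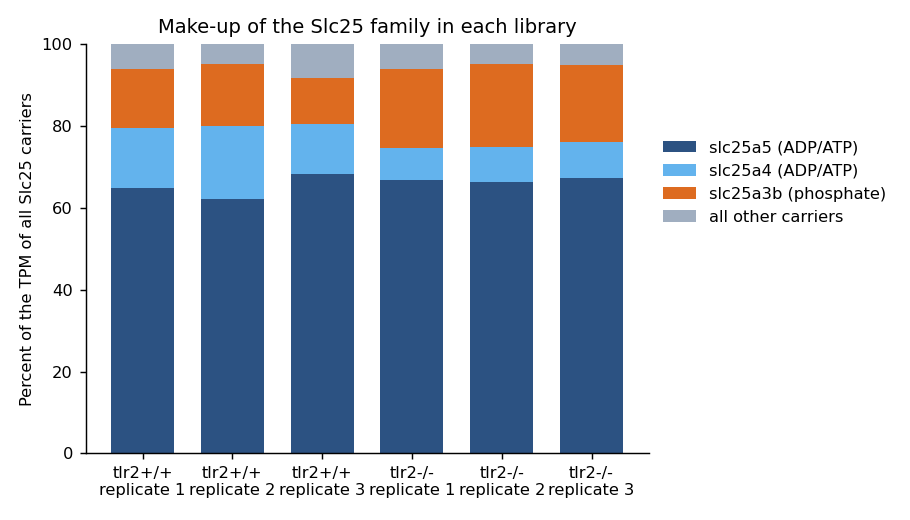
Percent of the TPM of all Slc25 carriers held in each of the 6 libraries by slc25a5, slc25a4, slc25a3b and all other carriers. The slc25a4 segment is 12.2% to 17.7% in wild type and 7.89% to 8.91% in mutants, and the slc25a3b segment is 11.2% to 15.1% in wild type and 18.7% to 20.3% in mutants.

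The shares that ADP/ATP carriers and phosphate carriers held of the family did not overlap between the genotypes. ADP/ATP carriers held 79.5%, 79.9% and 80.4% of the family's TPM in wild type and 74.7%, 74.8% and 76.1% in mutants, that is 79.9% ± 0.429 against 75.2% ± 0.818 (SD, n = 3 each). Phosphate carriers held 15.1%, 15.6% and 12.3% in wild type and 19.8%, 20.8% and 19.4% in mutants. The share of slc25a5 itself was 62.2% to 68.2% in wild type and 66.3% to 67.2% in mutants, so the groups overlapped for it, and the lower ADP/ATP share came with slc25a4. These shares compete within a fixed total, and they are given as a description, without a test over the family.

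Within the pair of ADP/ATP carriers, slc25a4 held 18.4%, 22.2% and 15.2% of their joint TPM in wild type and 10.6%, 11.3% and 11.7% in mutants. The groups did not overlap (exact two-sided permutation test, p = 0.1, n = 3 against 3, the smallest p possible). The summed TPM of the muscle marker list was also lower in mutants. Its 15 genes summed to 110722, 157864 and 103681 TPM in wild type and 78993, 100033 and 79229 TPM in mutants. The genes of the list did not all go this way, and some, such as acta1b, were higher in mutants. Per 1000 TPM of that list, slc25a4 stood at 14.2, 10.7 and 9.67 TPM in wild type and 10.9, 9.71 and 10.7 TPM in mutants, and these groups overlapped (exact permutation p = 0.8, n = 3 against 3). On the count scale the 17 muscle entries had a median log2 fold change of 0.07, with 9 above 0 and 8 below. The summed CPM of slc25a4 was 1988, 2596 and 655 in wild type and 1261, 1780 and 1271 in mutants, with overlap and a log2 fold change of -0.28 ± 0.476 (SE, edgeR adjusted p = 0.9997). The comparison of slc25a4 with slc25a5 and with muscle markers was chosen after the values were seen.

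The phosphate carrier slc25a3b had 22.4, 24.2 and 16.5 TPM per 100 TPM of slc25a5 in wild type and 28.9, 30.5 and 27.8 TPM in mutants, again without overlap (exact permutation p = 0.1, n = 3 against 3). This ratio, too, was chosen after the values were seen. Reads of slc25a3b itself were examined by transcript. Nearly all of them lay on a transcript of 1443 nt and a transcript of 1279 nt. The longer one stood at 893, 833 and 614 TPM in wild type and 1371, 1526 and 1158 TPM in mutants, and the shorter at 658, 605 and 312 TPM against 746, 803 and 614 TPM. Mutant libraries were above wild type libraries for the longer transcript, and the groups overlapped for the shorter.

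The test across all genes called no carrier. Of the 59 joined carriers, 49 had enough reads to be tested, among 16776 genes, by the quasi-likelihood test of edgeR, with p-values adjusted by the method of Benjamini and Hochberg. At an adjusted p under 0.05, 0 carriers and 1 gene in all passed (0.00596% of genes tested). At an unadjusted p under 0.05, 4 carriers passed (slc25a34 and slc25a3b higher in mutants, slc25a25a and the second slc25a4 entry lower), against 3.73% of all genes (1.73% higher and 1.99% lower). That is 4.08% of the 49 carriers in each direction. The count was 2 without wild type replicate 1, 1 without mutant replicate 2 and 2 without mutant replicate 3. The DESeq2 Wald test also called 0 carriers (0.179% of genes called) and limma on log2(TPM + 1) called 0 (0.0417%), with 4 and 6 carriers at an unadjusted p under 0.05 (4.13% and 8.39% of all genes).

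Replicates were far apart, and the biological coefficient of variation over all genes came to 1.05. The median log2 fold change of the 49 carriers, tlr2-/- over tlr2+/+, was 0.13 beside 0.02 for all genes, and 26 were above 0 and 23 below. Without wild type replicate 3 the median of the carriers was -0.02 beside 0.21 for all genes. Without mutant replicate 2 it was 0.02 beside 0.06 for all genes. In both of these fits the carriers thus lay below all genes, where the fit of all libraries had them above. With all libraries the median size of the change was 0.60 for the carriers and for all genes. On log2(TPM + 1) the median of all genes moved to -0.22 and that of the carriers to -0.16, so a carrier that is level with other genes appears lower in mutants on the TPM scale.

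**Figure D3:**
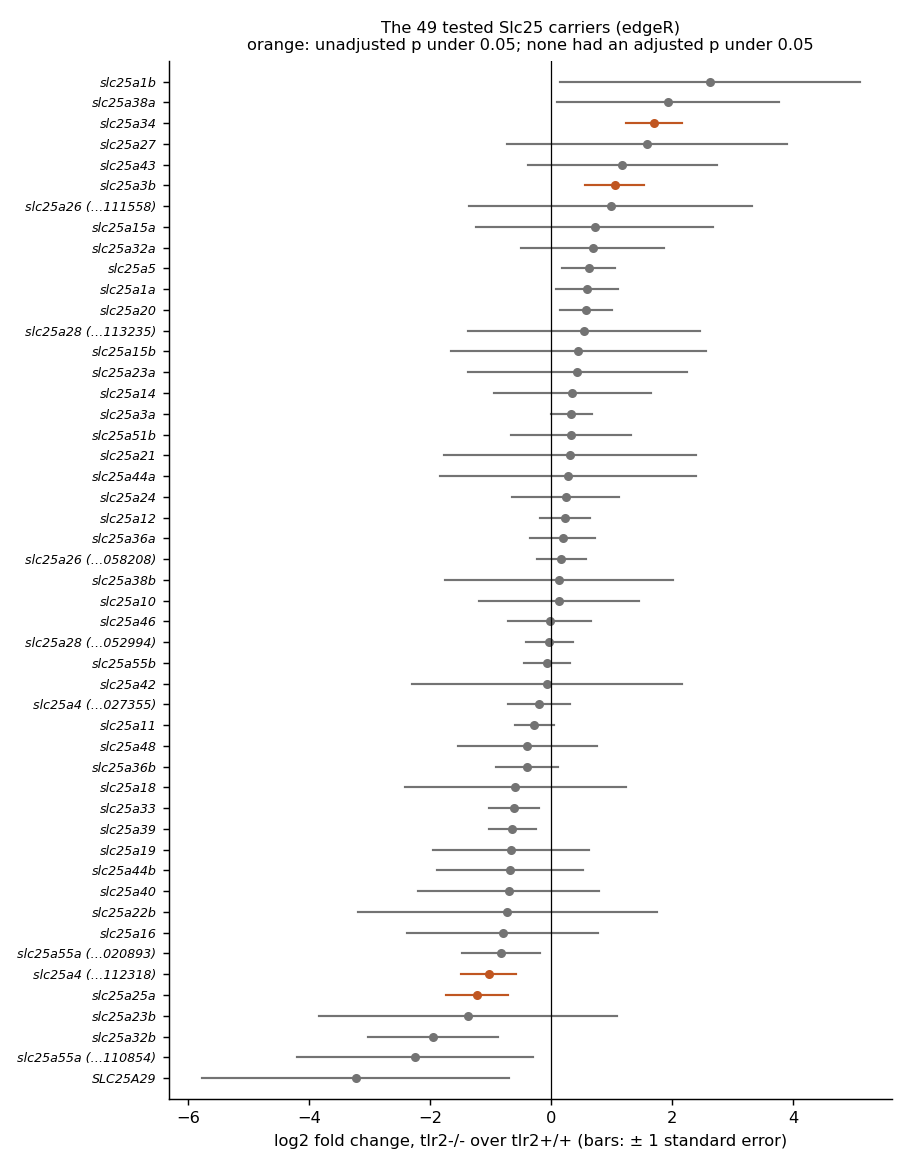
The log2 fold change of each of the 49 tested carriers, tlr2-/- over tlr2+/+, as a point with a bar of 1 standard error, ordered by its value. The 4 orange carriers had an unadjusted p under 0.05, and no carrier had an adjusted p under 0.05; the wide bars at both ends, as for slc25a1b and SLC25A29, belong to carriers with no read in some libraries.

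The carrier with the smallest p was slc25a34 (ENSDARG00000087401), which is close in sequence to the oxaloacetate carriers of yeast and whose substrate in vertebrates is not settled. It stood at 66.0, 67.3 and 47.3 TPM in wild type and 180, 198 and 103 TPM in mutants. In CPM it stood at 32.1, 42.1 and 12.7 against 93.6, 130 and 58.3, and no mutant library overlapped a wild type library on either scale. Its log2 fold change was 1.70 ± 0.469 (SE; edgeR unadjusted p = 0.00318, adjusted p = 0.9998). The study lists this gene among those it found changed in these same samples, so its direction here is not independent evidence. A transcript of 596 nt held 92.9% to 96.2% of its TPM, with 62.7, 62.5 and 45.2 TPM in wild type and 170, 190 and 97.8 TPM in mutants. The other transcript, of 3016 nt, had 3.26, 4.74 and 2.09 TPM in wild type and 9.59, 7.44 and 5.11 TPM in mutants, so the groups were apart on both. Per 1000 TPM of the muscle list, slc25a34 stood at 0.596, 0.426 and 0.456 TPM in wild type and 2.28, 1.97 and 1.30 TPM in mutants, a ratio also chosen after the values were seen, with no overlap.

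The phosphate carriers, the main ADP/ATP carrier and the carnitine carrier had log2 fold changes above 0, none past the adjusted threshold. In CPM, slc25a3b stood at 2542, 2632 and 782 in wild type and 3690, 5168 and 3472 in mutants, with a log2 fold change of 1.05 ± 0.482 (SE, edgeR unadjusted p = 0.0488, adjusted p = 0.9998). The other phosphate carrier, slc25a3a, had 98.8, 94.7 and 67.8 CPM against 83.9, 118 and 127 CPM, with overlap (log2 fold change 0.33 ± 0.339). Its mean TPM was lower in mutants, at 60.4 against 68.1 in wild type. For slc25a5 the values were 9597, 9210 and 4224 CPM against 10669, 14177 and 10471 CPM, and the log2 fold change was 0.62 ± 0.442. The carnitine/acylcarnitine carrier slc25a20 had 179, 160 and 58.0 CPM in wild type and 215, 221 and 155 CPM in mutants, which overlapped (log2 fold change 0.58 ± 0.424). In each of slc25a3b, slc25a5 and slc25a20 wild type replicate 3 was the lowest library by far. Per 100 TPM of slc25a5, slc25a20 was level, at 1.25 to 1.59 TPM in wild type and 1.27 to 1.71 TPM in mutants. None of the 7 tested entries of genes that act beside it, the carnitine palmitoyltransferases and carnitine acetyltransferases, had an unadjusted p under 0.05.

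Wild type replicate 3 had the largest TMM scaling factor, 1.59, against 0.789 to 0.983 in the others. With this library as the only wild type sample against the 3 mutants, on the assumption that it varies like them, edgeR called 6 of 56 tested carriers, or 10.7%, all higher in mutants, where 3.5% of all genes were called higher and 0.226% lower. These were slc25a34 (log2 fold change 3.06), slc25a3b (2.57), slc25a20 (1.93), slc25a5 (1.65), the main slc25a4 entry (1.58) and slc25a12 (1.54), and the value of slc25a4 is opposite in sign to that from all libraries. On the TPM scale, which carries no TMM factor, wild type replicate 3 lay closer to the mutants, with 43.2 TPM of slc25a12 against 54.4, 46.3 and 47.4 TPM in mutants. For the main slc25a4 entry it had 632 TPM against 800, 890 and 667 TPM, and for slc25a5 5613 TPM against 7319, 7635 and 6387 TPM. Wild type replicate 3 still lay below every mutant library for these 3 carriers in TPM. How far the size of these changes depends on the scaling of that library was not tested. Leaving out any single library gave log2 fold changes of 0.68 to 1.33 for slc25a3b, 0.34 to 0.88 for slc25a5, 0.23 to 0.92 for slc25a20 and 1.35 to 2.07 for slc25a34.

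**Figure D4:**
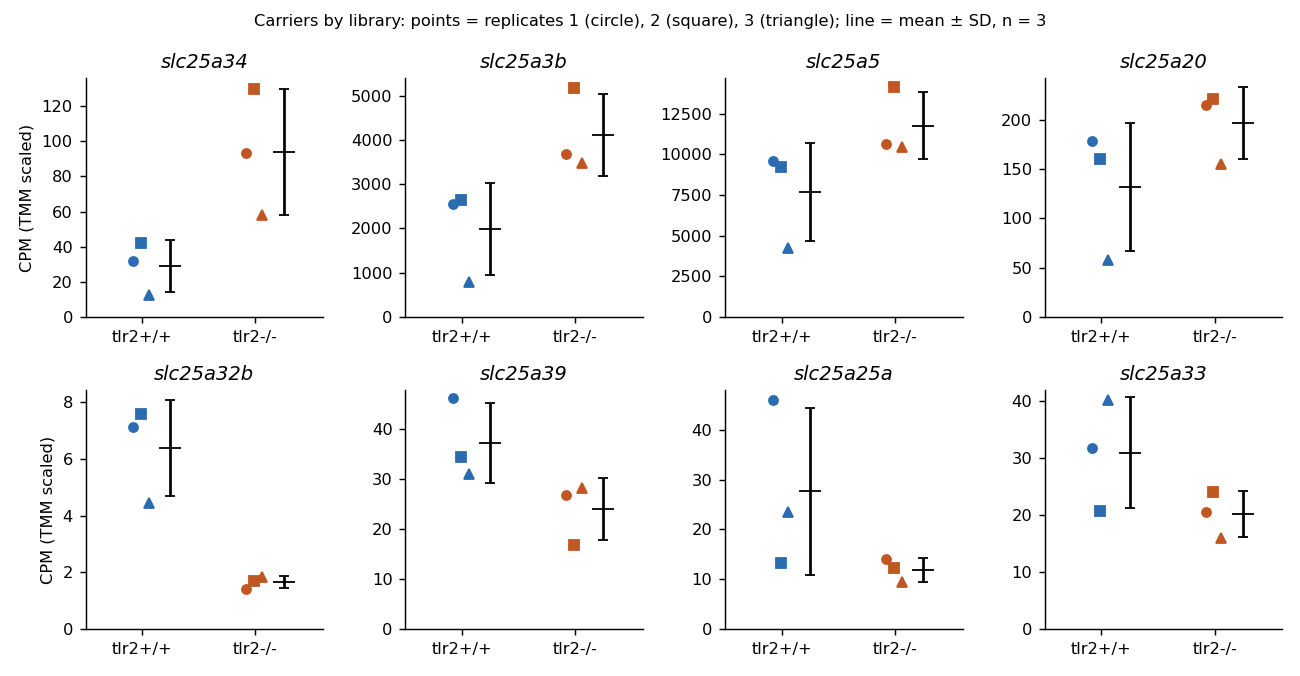
CPM with TMM scaling of 8 carriers in each library, 3 wild type (blue) and 3 mutant (orange), with the mean ± SD (n = 3) beside the points; every axis starts at 0. In the upper row wild type replicate 3 (triangle) is the lowest library, and slc25a34, slc25a3b, slc25a5, slc25a32b and slc25a39 show no overlap between genotypes, while slc25a20, slc25a25a and slc25a33 overlap.

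Of 13 tested carriers of cofactors and nucleotides, 8 had a log2 fold change below 0 and 5 above, with a median of -0.40 beside 0.02 for all genes, and none had an unadjusted p under 0.05. Without wild type replicate 1 this median was 0.29 beside 0.15 for all genes, and leaving out each library in turn gave -0.71 to 0.29. Without wild type replicates 1 and 2 together the median was -0.24, so its direction changed with the libraries left out. The folate and FAD carrier slc25a32b (ENSDARG00000026835) had 9.38, 6 and 7.15 TPM in wild type and 1.21, 1.12 and 1.39 TPM in mutants. In reads this was 214, 137 and 236 against 31, 32 and 30, and the groups did not overlap in TPM or CPM (log2 fold change -1.95 ± 1.08, edgeR unadjusted p = 0.0943, adjusted p = 0.9998). Which transcript carried these reads varied in wild type, where the 1128 nt transcript had 13, 137 and 162 of them. A 1213 nt transcript had 164, 0 and 74, and a 494 nt transcript had 37, 0 and 0. In mutants every read lay on the 1128 nt transcript. That transcript alone stood at 0.381, 6 and 5.05 TPM in wild type and 1.21, 1.12 and 1.39 TPM in mutants. The groups overlapped on it, with wild type replicate 1 below every mutant library. The paralogue slc25a32a had 0.528, 1.27 and 2.25 TPM in wild type and 1.03, 2.65 and 0.681 TPM in mutants. Its share of the pair was thus 5.33% to 24% in wild type and 32.9% to 70.3% in mutants. This pair lies below the level set for naming pairs and was singled out after its values were seen.

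The mitochondrial glutathione carrier slc25a39 (ENSDARG00000007449) had 46.2, 34.3 and 31 CPM in wild type and 26.8, 16.8 and 28.2 CPM in mutants (log2 fold change -0.64 ± 0.386). In TPM it stood at 41.2, 14.7 and 33.8 against 12, 5.95 and 12.3, and part of the wild type level came from short transcripts. The 2063 nt transcript alone stood at 17.3, 14.7 and 24.1 TPM in wild type and 12, 5.95 and 11.1 TPM in mutants, still without overlap. The related slc25a40 was read at 0.121 to 5.01 TPM, with overlap. The pyrimidine nucleotide carrier slc25a33 had 31.8, 20.8 and 40.2 CPM in wild type and 20.5, 24.1 and 16 CPM in mutants, with overlap (log2 fold change -0.61 ± 0.411).

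The lower carriers at an unadjusted p under 0.05 were slc25a25a and the second entry of slc25a4. The calcium-regulated ATP-Mg/phosphate carrier slc25a25a (ENSDARG00000010572) had 46.1, 13.3 and 23.5 CPM in wild type and 14, 12.2 and 9.33 CPM in mutants, so wild type replicate 2 lay within the mutant range (log2 fold change -1.22 ± 0.510, edgeR unadjusted p = 0.0331, adjusted p = 0.9998). Without wild type replicate 1, the highest library, its log2 fold change was -0.52 (unadjusted p = 0.315). The second slc25a4 entry had 302, 155 and 159 CPM in wild type and 52.5, 85.8 and 164 CPM in mutants (log2 fold change -1.03 ± 0.454, edgeR unadjusted p = 0.0416, adjusted p = 0.9998). It held 5.98% to 24% of all slc25a4 reads in wild type and 4.16% to 12.9% in mutants. As both entries carry the same symbol, reads could be split between them, and the sum above is the firmer value.

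Counting carriers whose libraries did not overlap in CPM gave 5 of 49 higher in mutants, or 10.2%, beside 6.87% of all genes, and 3 lower, or 6.12%, beside 6.2%. The higher were slc25a34, slc25a3b, slc25a5, slc25a38a and slc25a1b, and the lower were slc25a32b, slc25a39 and slc25a16. The filter asks for enough reads in 3 libraries. In wild type, slc25a38a had no read in replicate 2 and slc25a1b none in replicates 1 and 2. Neither could pass the filter through wild type libraries alone, although slc25a38a had 51 and 59 reads in replicates 1 and 3. Their place in this count is therefore no support for a difference. In TPM, 2 were higher (slc25a34 and slc25a3b, 2.53% of all genes) and 3 lower (slc25a32b, slc25a39 and slc25a26, 12.9% of all genes). As gene totals, slc25a34, slc25a3b, slc25a32b and slc25a39 were thus apart on both scales. With its 2 entries summed, slc25a26 overlapped, at 21.1, 17.1 and 35.7 TPM in wild type and 28, 15.6 and 18.9 TPM in mutants. For slc25a16, wild type replicate 2 had 1.72 CPM and mutant replicate 2 had 1.63 CPM. The 5 reads of its second entry, all in mutant replicate 2, are left out here and would close that gap. The glycine carrier slc25a38a, slc25a16, whose relative in yeast acts in coenzyme A transport, and the S-adenosylmethionine carrier slc25a26 are named here after their values were seen. The first had 51, 0 and 59 reads in wild type and 49, 82 and 69 in mutants. The citrate carrier slc25a1b had 0, 0 and 40 reads in wild type and 39, 32 and 22 in mutants, that is 0, 0 and 0.756 CPM against 1.79, 1.69 and 1.34 CPM, so wild type replicate 3 also lay below every mutant library, and all of these levels rest on few reads. The basic amino acid carrier slc25a29, which had too few reads for the test, had none in wild type and 9, 50 and 2 in mutants, whereas a separate entry, SLC25A29, had 238, 0 and 91 in wild type and 22, 0 and 0 in mutants.

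The other substrate classes gave no carrier at an unadjusted p under 0.05. For organic acids, slc25a1a, the main citrate carrier, had 7.30, 15.6 and 9.52 CPM in wild type and 17.6, 13.1 and 18.5 CPM in mutants (log2 fold change 0.60 ± 0.510), and slc25a11 had a log2 fold change of -0.28 ± 0.322. Among 10 tested amino acid carriers 6 were above 0 and 4 below, and slc25a12, the highest, had a log2 fold change of 0.23 ± 0.413. The partner enzymes of the malate-aspartate shuttle, 7 tested entries, likewise had none at an unadjusted p under 0.05. Of the uncoupling protein related carriers, slc25a14 was read at 0.00936 to 2.84 TPM and slc25a27 at up to 0.843 TPM. The uncoupling proteins proper, ucp1, ucp2 and ucp3, and the related outer membrane protein mtch2 had log2 fold changes between -0.55 and 0.30. For mitoferrin 2 the main entry had a log2 fold change of -0.03 ± 0.386, and none of 5 tested heme synthesis entries had an unadjusted p under 0.05.

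The family holds 12 pairs of a and b paralogues. In 4 of them a member reached a mean of 5 TPM, and in each of these 4 the same member was the higher in all 6 libraries. In slc25a1 the a member held 88.8% to 100% of the pair's TPM, and in slc25a25 it held 87.9% to 100%. In slc25a3 the b member was dominant, and the a member held 4.01%, 3.73% and 8.29% in wild type and 2.41%, 2.45% and 3.82% in mutants. In slc25a55 the a member held 2.76% to 49.2%. With the 2 entries of slc25a55a summed, as in this share, the log2 fold change was -1.04 ± 0.624, and the groups overlapped. Its first entry alone had 10.2, 16.6 and 28.4 CPM in wild type and 11.4, 2.90 and 16.8 CPM in mutants (log2 fold change -0.83 ± 0.647). The log2 fold change of slc25a55b was -0.07 ± 0.380.

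**Figure D5:**
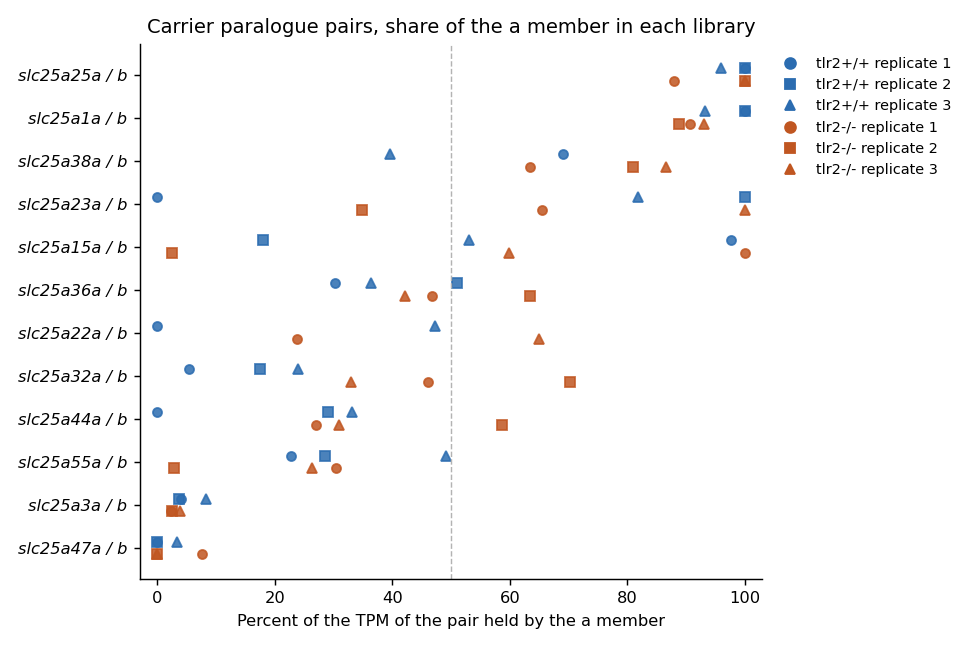
Percent of the TPM of each of the 12 carrier pairs that the a member held, for every library with reads of either member (blue wild type, orange mutant); the dashed line marks 50%. The slc25a1 and slc25a25 pairs lie at 87.9% or more and slc25a3 at 8.29% or less, whereas pairs of few reads such as slc25a15 and slc25a23 scatter over the whole range.

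Carriers are inserted by the TOM complex of the outer membrane, the small TIM chaperones of the intermembrane space and the TIM22 complex. Of 20 tested entries of this import list, 8 had a log2 fold change above 0 and 12 below, with a median of -0.04. The list summed to 784, 693 and 759 TPM in wild type and to 650, 607 and 615 TPM in mutants. Every mutant library was thus lower, on a scale where the median of all genes was also below 0 (-0.22). At an unadjusted p under 0.05, 2 entries were higher in mutants and none lower, beside 1.73% of all genes higher and 1.99% lower. These were tomm7, a small TOM subunit, with 53.4, 46.7 and 58.5 TPM in wild type and 84.0, 77.8 and 73.7 TPM in mutants (log2 fold change 1.00 ± 0.404), and timm10, a small TIM chaperone, with 37.6, 31 and 36.3 TPM against 63.6, 39.6 and 57.1 TPM (log2 fold change 1.00 ± 0.388). The list of transporters of the inner membrane outside the family had 18 tested entries. Among them smdt1a, a subunit of the calcium uniporter, had 128, 120 and 64.6 TPM in wild type and 194, 271 and 197 TPM in mutants (log2 fold change 1.41 ± 0.513, edgeR unadjusted p = 0.0165). Beside the ornithine carriers slc25a15a and slc25a15b, both near 1 TPM, the mitochondrial arginase arg2 had 28.3, 13.4 and 28.3 TPM in wild type and 6.60, 4.47 and 4.58 TPM in mutants (log2 fold change -1.68 ± 0.405, edgeR unadjusted p = 0.00122). None of these 4 genes had an adjusted p under 0.05. The study lists arg2 among the genes it found changed in these same samples, so its direction here is not independent evidence. The 3 outer membrane pores vdac1, vdac2 and vdac3 had log2 fold changes between -0.62 and 0.30, none at an unadjusted p under 0.05.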

How the data were processed

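Transcript tables of 6 whole-larva libraries (3 tlr2+/+, 3 tlr2-/-) were deposited by the authors with Salmon estimated counts and TPM on GRCz11 (Salmon 1.2.1 and DESeq2 1.24.0, per the submitters' processing notes), without gene names. The gene table deposited by the authors gives a mean normalised read count, a signal scaled by the authors with DESeq2, with gene symbols. Its 3 columns of log2 fold changes, their errors and s-values, which the authors made with apeglm and used in place of adjusted p-values, were not used. Transcripts were joined to genes by recomputing that mean from successive transcript rows (relative tolerance 1e-12; 21079 of 23956 genes joined, at least 99.91% of the estimated counts per library). Estimated counts and TPM were summed per gene, and estimated counts were rounded.

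Differences were tested over all 16776 genes kept by edgeR's default filter (edgeR 4.0.16, R 4.3.3; TMM scaling, robust quasi-likelihood fit, genotype only, Benjamini-Hochberg adjustment). The standard error of a log2 fold change was its size over the root of its F value. CPM values carry TMM factors (0.789 to 1.59). Totals ran from 17854737 to 33403126 estimated counts. Alternatives were DESeq2 1.42.0 with the Wald test or apeglm 1.24.0 (s-value at most 0.005), limma 3.58.1 on log2(TPM + 1), other scaling, no filter, length offsets, summed entries, the replicate number as a block, and libraries left out. On simulated counts with the fitted spread of this comparison (16776 genes), edgeR recovered 0% of genes changed 2-fold, 22.1% of those changed 8-fold and 38.8% of those changed 32-fold, with 1 false call. The exact permutation test of 3 against 3 libraries cannot give a p below 0.1. Each library is a pool of larvae, and the p-values measure only the spread between these libraries. Carriers, substrate classes and lists (carrier import, other inner membrane transporters, pores, shuttle, carnitine, urea and heme partners, cell type markers) were chosen with earlier results of these data known. Named carriers are the 10 highest by mean TPM, the highest of each class, the 6 of smallest p in each direction, pairs in which a member reaches 5 TPM, and slc25a34; of each list up to 2 members of smallest p may be named. An entry with its symbol in capitals, SLC25A29, was counted as a carrier.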

Additional observations from a re-analysis of the deposited data

How the results depend on the processing

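No carrier passed its threshold under RLE scaling, no filter, summed entries, length offsets, DESeq2, apeglm, limma or any single left-out library. The study, with apeglm at the same s-value threshold in the same samples, lists slc25a34 as changed. Here apeglm called 36 of 16776 genes and slc25a34 was not among them. The cause of this difference was not tested. Carriers called numbered 1 with the replicate number as a block and 6 with wild type replicates 1 and 2 left out together, against 0. At an unadjusted p under 0.05 the count was 4, and it was 2 with RLE scaling (562 of 16776 genes in all), 9 of 56, or 16.1%, without wild type replicates 1 and 2 (11% of all genes), and 1 to 5 with single libraries left out (316 to 2923 genes in all); 0 carriers passed the adjusted threshold in each of the latter. Carriers without overlap numbered 8 in CPM and 5 in TPM. The main slc25a4 entry reversed to 1.58 without wild type replicates 1 and 2; this fit has 1 wild type library, and the cause was not tested.

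The labels number replicates in both genotypes. Deviations of same-numbered libraries correlated at 0.0312, 0.0659 and 0.125, and 3 of 6 libraries correlated best with their own number, so the numbers were not taken as a pairing. Under the replicate block 64 genes were called in place of 1, among them slc25a34 (log2 fold change 1.79, edgeR adjusted p = 0.00648). Over the alternatives the log2 fold change of slc25a34 ran from 1.27 to 3.06, and that of slc25a32b from -2.16 to -0.05, the latter where apeglm shrinks it. At this depth, levels of carriers under about 1 TPM rest on few reads.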
